A study of Mus musculus with 15 samples.

Results

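Dendritic cells (DCs) were compared before and 1 h after LPS, the bacterial cell wall component that activates Toll-like receptor 4, by their nucleosome maps around gene promoters. The comparison used 2 of the 15 samples of the series and the 13559 of 25881 annotated promoters (52.4%) whose coverage score was over 100, which bear 11613 named genes. All 200 bins of 10 bp from −1000 to 1000 bp of each transcription start site (TSS) were used. The lowest score kept was 100.25 and the highest left out below the limit was 99.75, and 46 promoters lay exactly at 100. Of the promoters used, 5133 (37.9%) had a 2 kb window that overlapped another one, so that divergent or neighbouring genes share bins.

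The assay was ChIP-MNase against H3K4me1, a histone mark found at promoters and enhancers, in which captured chromatin is digested with micrococcal nuclease and protected fragments mark nucleosomes. The DCs were mouse cells differentiated in vitro with GM-CSF from bone marrow-derived progenitor lines, with no BAF knockdown, and either received no treatment (non-stimulated) or LPS at 100 ng/ml. Each state was 1 table in which the authors had pooled 2 replicates, so neither state has a replicate error and no difference below was tested. For scale, the same differences are given in 3T3 fibroblasts, an immortalised mouse line, without stimulus or given TNF-α (5 ng/ml) for 1 h (pooled in the same way), and in fibroblasts with a control vector, which have 2 separate replicates in each state.

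Nucleosomes at a transcribed promoter usually flank a nucleosome-depleted region (NDR) just upstream of the TSS, with the −1 nucleosome upstream and the regularly spaced +1, +2 and further nucleosomes downstream of it. Remodelling enzymes move or evict these nucleosomes, and transcription factors such as NF-κB, the factor that LPS releases from its inhibitors, bind where DNA is accessible. Genes that answer LPS within an hour encode cytokines, chemokines, immediate early transcription factors and the inhibitors that end the response.

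Markers of cell types were read in the expression values for resting DCs (FPKM from public RNA-seq, deposited with the promoters). Those values come from no sample of this series, so they describe the expression data and do not check the label of the DC libraries. All 15 DC markers were above 0, with a median of 34.6 and values from 0.017 to 132.54, against a median of 0.034 over the 24924 promoters matched to a gene symbol. The 12 fibroblast markers fixed for this reading lay between 0 and 0.12, with Lum, Pdgfra and Twist1 at 0. The 9 lymphocyte markers lay between 0 and 0.14, with 5 of them at 0. The deposited occupancies held a fragment in 90.2% of bins in non-stimulated DCs and in 86.0% after LPS, and within the NDR in 74.9% and 66.7%. The pooled fibroblasts showed a like drop, from 87.3% to 82.0% over all bins. This difference in filled bins goes along with the falls of the NDR given below, and its part in them was not tested.

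To show the DNA on which the changes at LPS response genes lie, the 150 bases before the TSS, which are the NDR window measured here, are printed 5′ to 3′ in the direction of the gene for 6 promoters, from the mm9 build. Capitals mark matches, on either strand, to the NF-κB consensus, to the TATA box (TATAAA) or to the interferon response motif. Tnf, the cytokine tumour necrosis factor, lies at chr17:35338942-35339091 on the minus strand, Il1b, the cytokine interleukin-1β, at chr2:129196857-129197006 on the minus strand, and Cxcl2, a chemokine that attracts neutrophils, at chr5:91332776-91332925 on the plus strand. Cxcl10, a chemokine that attracts T cells, lies at chr5:92777916-92778065 on the minus strand, Irf1, a transcription factor of the interferon response, at chr11:53583367-53583516 on the plus strand, and Ifit1, an antiviral protein that binds foreign RNA, at chr19:34715230-34715379 on the plus strand.
Tnf: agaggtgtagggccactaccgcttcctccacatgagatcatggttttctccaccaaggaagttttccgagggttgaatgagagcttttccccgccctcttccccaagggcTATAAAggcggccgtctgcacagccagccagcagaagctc
Il1b: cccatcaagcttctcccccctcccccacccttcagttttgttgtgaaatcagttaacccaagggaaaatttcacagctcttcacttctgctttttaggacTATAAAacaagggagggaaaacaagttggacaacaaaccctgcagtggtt
Cxcl2: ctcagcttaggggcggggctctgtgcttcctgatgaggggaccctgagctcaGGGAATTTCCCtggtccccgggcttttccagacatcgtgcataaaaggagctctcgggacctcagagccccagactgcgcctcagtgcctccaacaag
Cxcl10: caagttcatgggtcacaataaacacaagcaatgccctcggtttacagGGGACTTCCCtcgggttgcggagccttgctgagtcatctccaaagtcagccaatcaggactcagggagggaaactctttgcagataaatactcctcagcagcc
Irf1: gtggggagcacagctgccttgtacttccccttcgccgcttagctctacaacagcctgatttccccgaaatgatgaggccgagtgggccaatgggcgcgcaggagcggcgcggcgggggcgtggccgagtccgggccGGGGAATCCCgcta
Ifit1: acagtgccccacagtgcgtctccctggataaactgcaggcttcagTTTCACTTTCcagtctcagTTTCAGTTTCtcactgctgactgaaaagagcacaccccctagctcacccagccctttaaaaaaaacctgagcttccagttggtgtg
Tnf and Il1b carry a TATA box, Cxcl2, Cxcl10 and Irf1 an NF-κB match, and Ifit1 a pair of interferon response motifs. In Cxcl2 the capitals join 2 overlapping matches. Over all promoters measured, an NF-κB match stood in 375 windows (2.77%), a TATA box in 735 (5.42%) and an interferon response motif in 248 (1.83%).

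Depletion was expressed as an NDR ratio, the mean occupancy of the 15 bins between −150 bp and the TSS over that of the flank between −1000 and −500 bp, so that a low value means a depleted region. For single promoters 0.1 was added to both means. In simulated profiles with an unchanged flank, this and the smoothing made log2 changes smaller than the changes put in. At Cxcl2 the NDR ratio was 1.033 in non-stimulated DCs and 0.082 after LPS, a log2 change of −3.65. There, bins with a fragment fell from 15 to 2 of the 15 in the NDR. At Cxcl10 the ratio was 0.351 and then 0.064 (log2 change −2.45), at Ifit1 0.541 and 0.13 (−2.05). Cxcl10 was already under 0.5 at rest, whereas Cxcl2 and Ifit1 were not. The bases printed for these promoters lie in the window that held fewer fragments after LPS.

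At Tnf the ratio was 0.381 and then 0.127 (log2 change −1.58), and at Irf1 it was 0.231 and 0.08 (−1.54). Il1b went the other way, from 0.336 to 0.824 (1.29). Il1b is thus a TATA box promoter with more occupancy in its NDR after LPS, where Tnf, the other TATA box promoter shown, had less. Filled NDR bins nevertheless fell at both, from 15 to 10 at Il1b and from 12 to 2 at Tnf.

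The remaining promoters of the 12 fixed LPS response genes that had enough coverage changed by less than 2-fold. Zfp36, which encodes tristetraprolin, an RNA-binding protein that destabilises cytokine mRNAs, was nearly empty in both states, at 0.057 and 0.061 with 1 filled bin each. Tnfaip3, the deubiquitinase A20, which restrains NF-κB, was covered in both, at 0.959 and 0.852. The chemokine genes Ccl3 (0.813 and 0.497) and Ccl4 (1.049 and 0.853), the AP-1 subunit Junb (0.378 and 0.264) and Ptgs2, the inducible cyclooxygenase (0.485 and 0.527), also stayed within 2-fold. Nfkbia, Fos and Egr1 were not measured here because their promoters had a score of 100 or less.

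**Figure D1:**
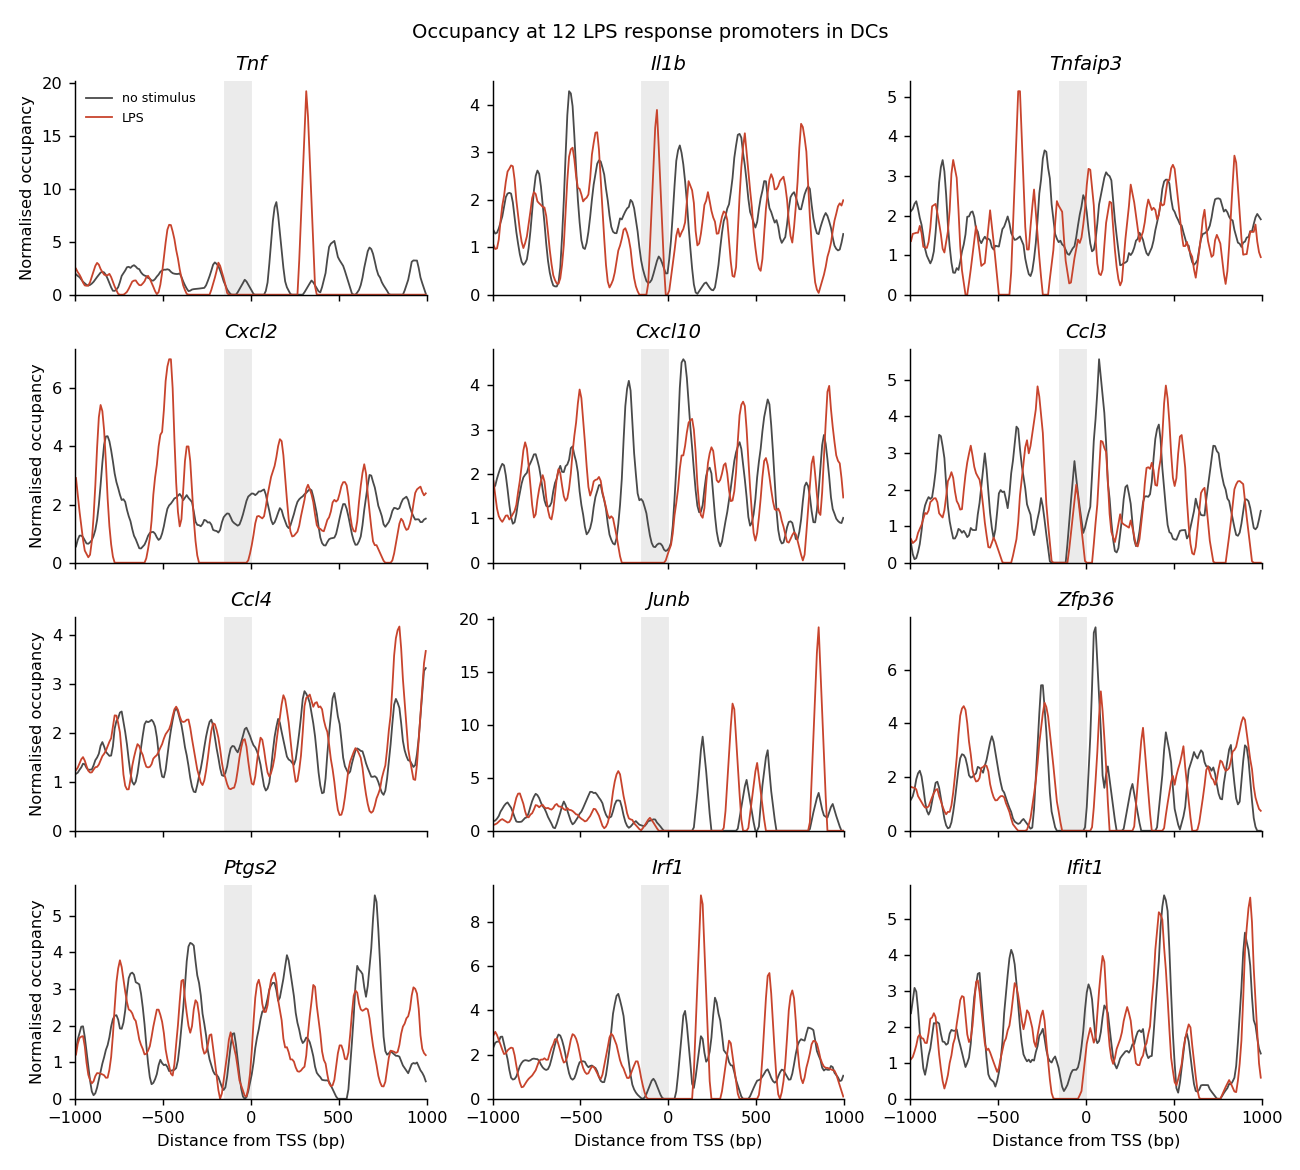
Normalised occupancy (vertical axis, no unit, scaled separately in each panel) against distance from the TSS in bp at the 12 fixed LPS response promoters, in non-stimulated DCs (grey) and DCs after LPS (red), 1 pooled library each. The shaded band is the NDR window, which is nearly empty after LPS at Cxcl2, Cxcl10 and Ifit1 and in both states at Zfp36.

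The same ratios in fibroblasts give the size of change seen elsewhere. In the pooled fibroblasts the log2 change upon TNF-α was −2.77 at Cxcl10, −0.46 at Cxcl2, −0.34 at Tnf, −0.11 at Irf1, 0.5 at Ifit1 and 1.09 at Il1b. Cxcl10 and Il1b therefore moved by 2-fold in the same direction in both cell types, whereas Cxcl2, Tnf, Irf1 and Ifit1 did so in DCs and not in fibroblasts, and that difference was not tested. Irf1 was already nearly empty in resting fibroblasts, at 0.059, so it could not have fallen 2-fold there.

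Across all promoters the NDR ratio was at least 2-fold lower after LPS at 2854 (21.0%) and at least 2-fold higher at 2010 (14.8%). The median log2 change was −0.07, with a standard deviation (SD) of 1.54 over promoters. In pooled fibroblasts 3173 (23.4%) were 2-fold lower and 2137 (15.8%) 2-fold higher, and between the 2 control-vector replicates without stimulus, where no treatment differs, 3921 (28.9%) were lower and 2370 (17.5%) higher. A 2-fold change at a single promoter was thus no rarer between replicates of 1 state than between the DC states, although single replicates are sparser than pooled tables and have a lower mean occupancy (0.796 to 0.804 against 1.615 to 1.633), so that the added 0.1 weighs more in them. The spread fell with coverage, from an SD of 1.65 at scores over 100 to 150 to 1.31 at scores over 500, where 22.2% of promoters changed 2-fold in either direction.

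**Figure D2:**
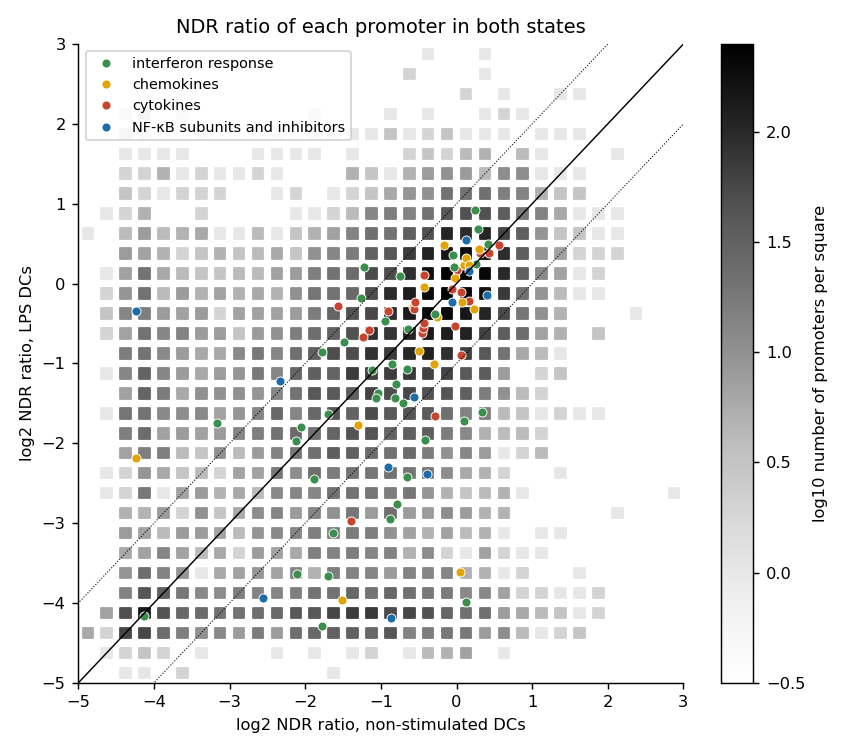
Log2 NDR ratio of each promoter without stimulus (horizontal) and after LPS (vertical), as a density of squares whose darkness gives the log10 number of promoters, with genes of 4 lists as coloured points at their best-covered promoter. The solid line is no change and the dotted lines are 2-fold, and points beyond the frame (Ccl20) are not shown.

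Most promoters were on the same side of a limit for depletion in both states. With an NDR ratio under 0.5 called depleted, a limit chosen after the data had been seen, 3594 promoters (26.5%) were depleted in both states and 6467 (47.7%) in neither. Depletion was present only after LPS at 1939 (14.3%) and only at rest at 1559 (11.5%). In pooled fibroblasts the corresponding shares were 14.7% and 10.7%. Among promoters of expressed genes with a CpG island (here, over 50% G and C and CpG at more than 0.6 of the frequency its bases predict, within 200 bp of the TSS), 43.0% were depleted in both states, against 18.8% of expressed promoters without one and 5.3% of silent promoters without one.

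Members of the NF-κB system, its subunits and inhibitors, had 15 promoters with enough coverage, of which 7 (46.7%, beside the background of 21.0%) were 2-fold lower and 2 (13.3%) 2-fold higher, with a median of −0.87 against −0.07 over all promoters. Alternative promoters of a gene share bins, and with the best-covered promoter of each gene alone 4 of 11 genes were lower and 2 higher, with a median of −0.55. Over expressed genes with a CpG island, 1 promoter each, 29.2% were lower and 18.8% higher, beside 36.4% and 18.2% of these 11 genes. In pooled fibroblasts 5 of the 15 promoters were lower and 3 higher, beside 23.4% and 15.8% of all promoters. The transactivating subunit Rela went from 0.546 to 0.055 and had no fragment left in the NDR. Nfkbie, an IκB protein that holds NF-κB in the cytoplasm, went from 0.762 to 0.191, and the A20-binding adaptors Tnip1 and Tnip2 from 0.532 to 0.203 and from 0.17 to 0.065. Nfkbib, another IκB protein, moved from an empty NDR (0.053) to 0.786, and Nfkbid, a nuclear IκB protein, from 0.199 to 0.428. Rela and Nfkbie were also over 2-fold lower in fibroblasts, with log2 changes of −3.43 and −2.0.

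Few cytokine promoters passed 2-fold. Of 26, 2 were lower and 3 higher (7.7% and 11.5%), beside 21.0% and 14.8% of all promoters, with a median of 0.1. Depletion was absent in both states at 18, beside 47.7% of all promoters and 62.7% of expressed promoters without a CpG island. A CpG island was present at 19.2% of the 26. With 1 promoter for each gene, 2 of 21 were lower and 1 higher (4.8%), and the median was −0.05. Vegfa, the vascular growth factor, went from 0.822 to 0.318, and with Tnf it made up the 2 that were lower. Ifnb1, the interferon-β gene, which was silent at rest, stood at 1.038 and 0.537, just inside 2-fold. Il23a, a subunit of interleukin-23, kept a covered NDR at 1.35 and 1.308.

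None of the 18 chemokine promoters had a CpG island, and 12 were depleted in neither state. Over all promoters 47.7% were depleted in neither, and over expressed promoters without a CpG island 62.7%. Besides Cxcl2 and Cxcl10, which were lower, 2 were higher. These calls were 11.1% each way, beside 21.0% and 14.8% of all promoters. Ccl2, the monocyte chemoattractant, went from an empty NDR (0.053) to 0.22. Ccl20, a chemokine for cells with the receptor CCR6, went from 0.048 to 29.877, at a score of 115.0 and with 0 and 15 filled bins. That ratio is larger than any occupancy in the tables because the flank that divides it was almost empty, and its size should not be read as a measure of the change. An NF-κB match stood in 8 of the 18 windows (44.4%), the highest share of the 12 lists.

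Immediate early transcription factor genes are induced without new protein synthesis. Of 14 such promoters 5 were lower (35.7%) and 1 higher (7.1%), and 85.7% had a CpG island. The shares over all promoters were 21.0% and 14.8%, and over expressed genes with a CpG island 29.2% and 18.8%. Btg2, an antiproliferative cofactor, went from 0.546 to 0.06, Klf6 from 0.278 to 0.055, Cebpb, a factor of myeloid and inflammatory genes, from 0.874 to 0.141, Mafk from 0.208 to 0.065 and Nr4a2, an orphan nuclear receptor, from 1.519 to 0.683. Ier3 was the one that was higher, from 0.056 to 1.54. In fibroblasts Cebpb and Mafk were 2-fold lower as well, at −2.88 and −1.67, while Klf6 and Nr4a2 were 2-fold higher, at 1.8 and 4.39.

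Genes of signalling feedback and survival gave 35 promoters, of which 9 were lower (25.7%) and 4 higher (11.4%), beside 21.0% and 14.8% of all promoters. Socs1, an inhibitor of cytokine receptor signalling, went from 0.348 to 0.054, and Ppp1r15a, which restores translation after stress, from 0.384 to 0.054. The MAP kinase phosphatase Dusp10 went from 0.408 to 0.064 and the adhesion molecule Icam1 from 1.019 to 0.494. Cish, another cytokine signalling inhibitor, was higher (0.048 to 0.89), as was the kinase gene Pim3 (0.084 to 0.778). Bcl2a1d went from 0.272 to 0.562, but its family has near-identical copies, and fragments that matched several promoters had been dropped, so its value is uncertain.

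Over the 5 LPS response lists together, 25 of 108 promoters (23.1%) were 2-fold lower and 12 (11.1%) higher, beside the background of 21.0% and 14.8%. The mean profile of these promoters had an NDR ratio of 0.66 before and 0.657 after LPS. These shares lie within a few percentage points of the background.

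Interferon response genes had 44 promoters, 11 lower and 4 higher, beside 21.0% and 14.8% of all promoters, with a median of −0.03. Depletion was present only after LPS at 12 of the 44 and only at rest at 4, beside 14.3% and 11.5% of all promoters. Irf7, the regulator of type I interferon genes, went from 0.578 to 0.147, and Stat2, which carries the type I interferon signal to the nucleus, from 0.321 to 0.115. The viral RNA sensor Ifih1 went from 1.26 to 0.327, the deISGylase Usp18 from 0.75 to 0.257 and the RNA editor Adar from 0.636 to 0.186. Irf9, a DNA-binding partner of Stat2, went the other way, from 0.429 to 1.151, as did Rsad2 (viperin), from 0.417 to 0.882. Oas1b and Oas1c belong to a cluster of near-identical genes and their values (0.307 to 0.079 and 0.292 to 0.051) are uncertain. The interferon response motif stood in 16 of the 44 windows (36.4%).

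Of 25 promoters of the TLR4 pathway, through which LPS acts, 10 were lower and 2 higher, beside 21.0% and 14.8% of all promoters, and 0 were depleted at rest only, beside 11.5%. With 1 promoter for each gene, 8 of 19 were lower (42.1%) and 1 higher (5.3%), and 57.9% had a CpG island. Over expressed genes with a CpG island the shares were 29.2% and 18.8%. The adaptor Myd88 went from 0.827 to 0.121. The IRAK family genes Irak2, Irak3 and Irak4 went from 0.203 to 0.051, from 1.007 to 0.234 and from 0.253 to 0.049. The IκB kinase genes Chuk and Ikbkb went from 0.516 to 0.151 and from 1.118 to 0.515. Ly96, the coreceptor MD-2, went from 0.134 to 0.053. Map3k7, the kinase TAK1, was higher, from 0.794 to 3.022. In pooled fibroblasts 10 of the same 25 promoters were lower and 4 higher, beside 23.4% and 15.8% of all promoters there.

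DC identity and maturation genes gave 28 promoters, 2 lower (7.1%) and 3 higher (10.7%), beside 21.0% and 14.8% of all promoters. A CpG island was present at 21.4% of the 28, against 56.2% of all promoters, and its part in these shares was not tested. The lower ones were the MHC class II genes H2-Aa (0.632 to 0.249) and H2-Eb1 (0.756 to 0.14). Spi1, the myeloid factor PU.1, went from 0.086 to 0.228 and the phosphatase Ptprc (CD45) from 0.054 to 0.358.

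The lists of housekeeping genes, included for comparison, also held many calls. Of 17 proteasome subunit promoters 6 were lower (35.3%) and 4 higher (23.5%), and of 43 cytosolic ribosomal protein promoters 14 were lower (32.6%) and 12 higher (27.9%), beside 29.2% and 18.8% of expressed genes with a CpG island. Rpl19 went from 0.683 to 0.075 and Rplp0 from 0.05 to 2.325, Psmd12 from 1.028 to 0.082 and Psma2 from 0.052 to 0.92. A wider fibroblast list of 20 genes also holds Fn1 and S100a4 (31.0 and 84.5 FPKM in resting DCs). It gave 12 promoters, of which 2 were lower and 0 higher. Of 9 lymphocyte marker promoters 1 was lower and 0 higher. The background for both marker lists is 21.0% lower and 14.8% higher over all promoters, and the difference from it was not tested.

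**Figure D3:**
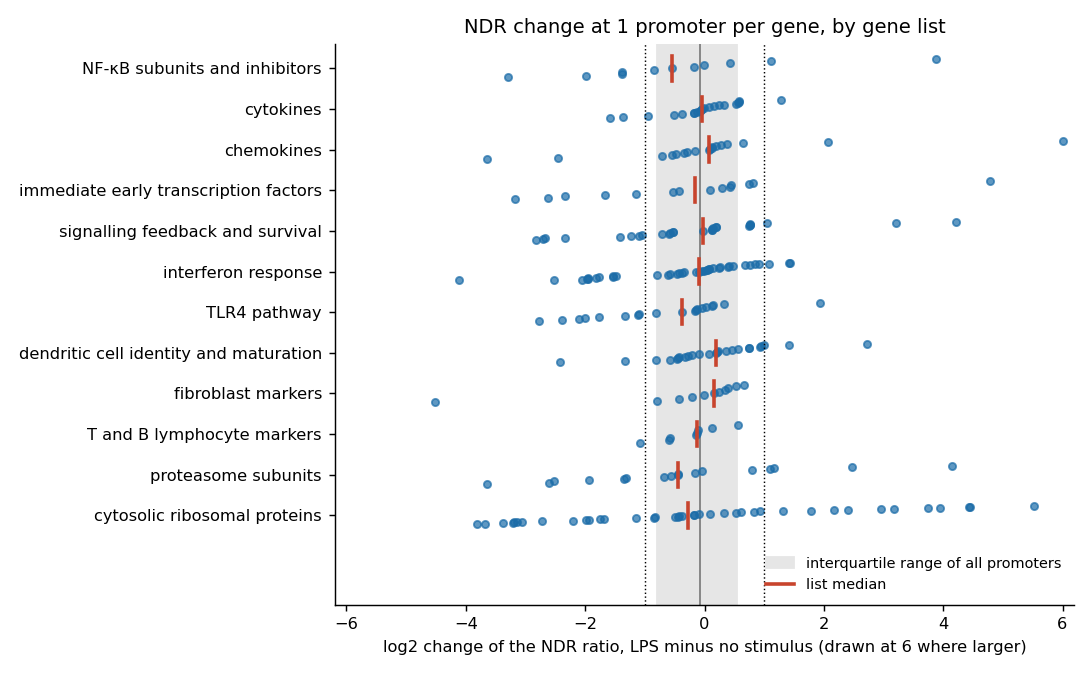
Log2 change of the NDR ratio from non-stimulated to LPS-treated DCs (horizontal) at the best-covered promoter of each gene (points), by gene list (vertical). Red bars are list medians, the band is the interquartile range of all promoters, dotted lines are 2-fold, and the ribosomal list holds 14 lower and 11 higher genes of 40.

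The largest single changes lay among promoters of varied function. Among promoters with a score of 300 or more and any expression above 0 in resting DCs, a wider set than the expressed promoters above that holds Tcf19 and Aamdc at almost 0, the 8 largest falls were at Pex2, Lig4, Cbx5, Tcf19, Slc39a7, Mrpl18, Tbrg4 and Mir5131, with log2 changes from −5.01 to −4.15. The 8 largest rises were at Mkks, Atg9a, Maf1, Rab26os, Sharpin, Calml4, Ap4m1 and Aamdc, from 4.59 to 5.28. At these promoters 1 of the states had at most 3 filled bins of 15 in the NDR. In fibroblasts, Lig4, Cbx5, Tbrg4 and Mir5131 among the falls and Mkks, Maf1, Rab26os, Sharpin and Ap4m1 among the rises changed 2-fold in the opposite direction. Pex2 (−3.11) was 2-fold lower there too, and the other 6 stayed within 2-fold. Maf1 and Sharpin share a window.

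Mean profiles average out the spread of single promoters. At the 8373 promoters of genes expressed in resting DCs (above 0.02 of the mean expression of all promoters), the NDR ratio of the mean profile was 0.569 at rest and 0.548 after LPS, a change of −0.02. At the 3225 silent promoters it was 0.934 and 0.92. The change in pooled fibroblasts at the same expressed promoters was −0.043, and in the control-vector replicates −0.022 and 0.051. Between those replicates the ratio differed by −0.145 without stimulus and by −0.073 with TNF-α, with replicate 2 lower in both. Both differences were larger than that between the DC states, but they come from single, sparser libraries. Expressed promoters with a CpG island had the deeper NDR, at 0.486 and 0.456, and those without one stood at 0.769 and 0.771.

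The +1 nucleosome was the highest peak, at 135 bp and a mean occupancy of 2.337 at rest and at 125 bp and 2.247 after LPS. Its height thus changed by −0.09. The control-vector tables have a lower mean occupancy, so heights were also divided by the mean of each library at these promoters. On that relative scale the +1 height was 1.454 and 1.406 in DCs, a change of −0.048, and it changed by 0.02 in pooled fibroblasts and by 0.021 and 0.034 in the control-vector replicates. Between the control-vector replicates of 1 state it differed by 0.112 without stimulus and by 0.126 with TNF-α, with replicate 2 higher in both. No treatment differed there, but these are single libraries, sparser than the pooled DC tables. Other differences between the replicates, such as preparation, were not tested. In the deposited unit, the change was −0.123 at expressed promoters with a CpG island and 0.002 at those without. Over 5 groups of rising expression the change was −0.139, 0.0, −0.106, −0.052 and −0.117, with no order. The +2 peak lay at 315 bp in both states, with heights of 1.744 and 1.765. The −1 peak lay at −215 and −225 bp, with heights of 1.734 and 1.726.

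**Figure D4:**
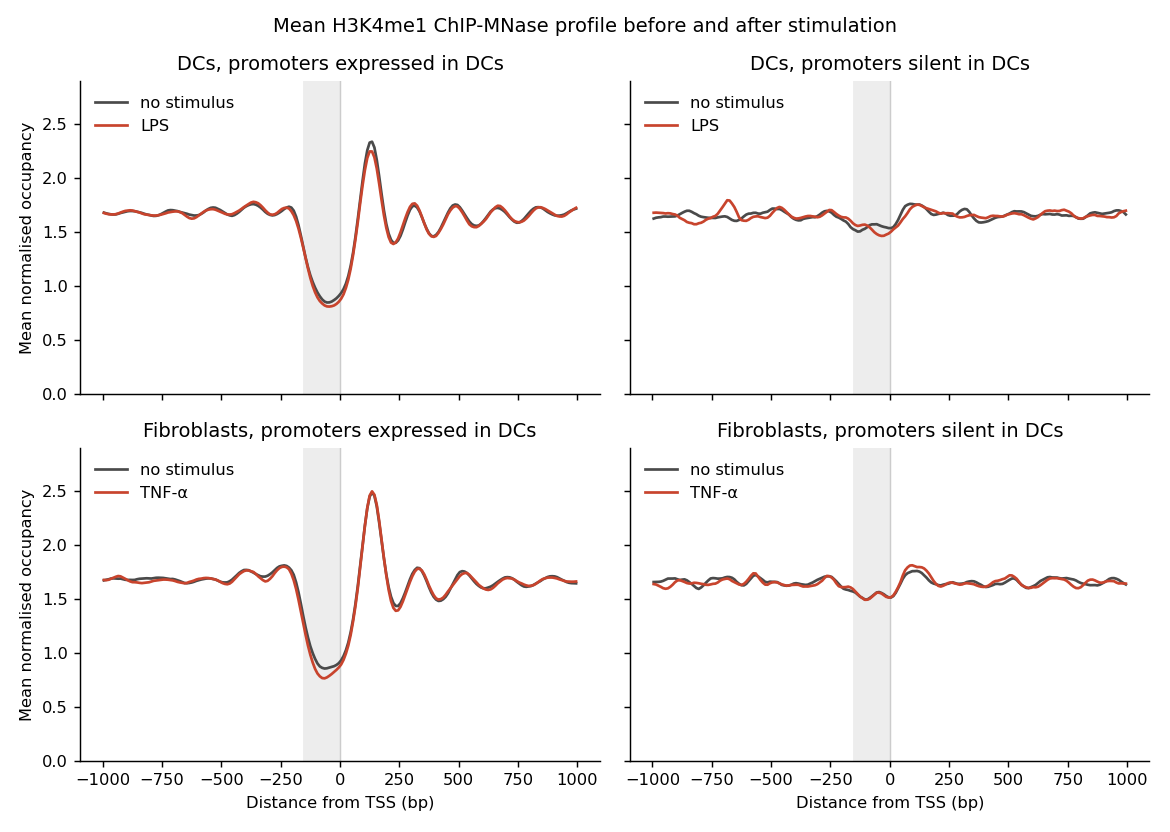
Mean normalised occupancy against distance from the TSS in bp, at promoters expressed or silent in resting DCs, in DCs (top) and pooled fibroblasts (bottom), without stimulus (grey) and with it (red), with the NDR window shaded. At expressed promoters the red and grey DC curves nearly coincide, apart from a +1 peak of 2.247 against 2.337, and silent promoters show no clear array.

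Nucleosome positions at single promoters were taken as the most prominent peak within 90 bp of the mean position of each nucleosome, −225, 125 and 315 bp. The median shift upon LPS was 0 bp for each. The +1 nucleosome lay 40 bp or more downstream at 2516 of 11679 promoters with a peak in both states (21.5%) and upstream at 2483 (21.3%). For the −1 nucleosome these shares were 22.7% and 22.5%, and for the +2 nucleosome 23.3% and 23.5%. The median size of a shift was 30 bp for each nucleosome, and it was 40 bp for each between the unstimulated control-vector replicates. With this window rule the shifts of DCs were therefore balanced between directions. They were less so when the first peak next to the TSS was taken instead. Downstream and upstream shares were then 27.3% and 35.9% for the −1, 30.2% and 24.3% for the +1, and 37.9% and 30.9% for the +2 nucleosome. The median size of the window shifts was below that between replicates, but the tables were not filled alike. The unstimulated replicates are single libraries with 74.9% and 69.7% of bins filled, against 90.2% and 86.0% in the pooled DC tables. The part of this in the sizes was not tested. The median distance between the +1 and +2 nucleosomes was 180 bp in DCs in both states and 190 bp in both pooled fibroblast states.

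**Figure D5:**
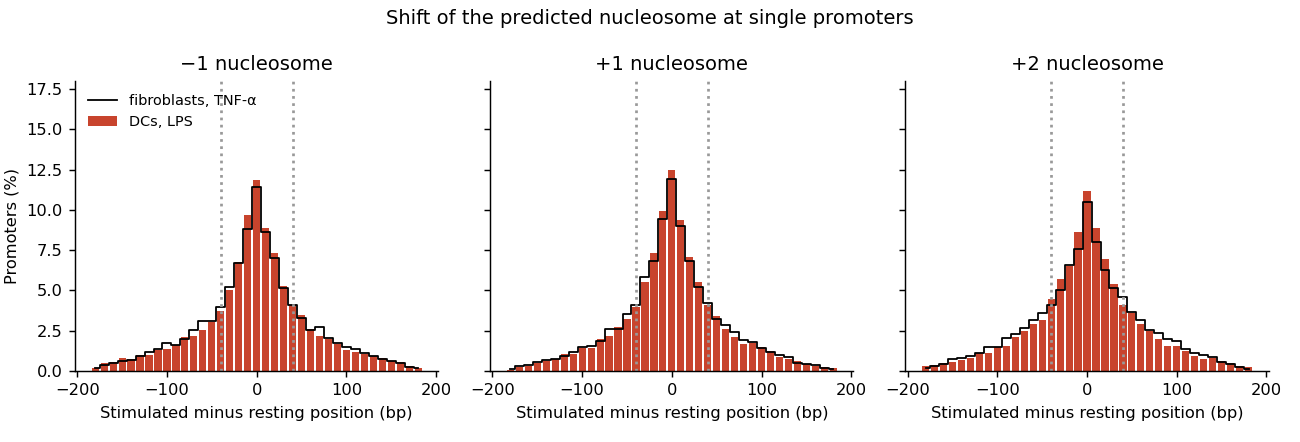
Share of promoters (%) by shift of the −1, +1 and +2 nucleosome in bp (stimulated minus resting position), for DCs (bars) and pooled fibroblasts (line). Each distribution is centred on 0 and symmetric, with dotted lines at 40 bp in each direction.

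Among the response lists, the +1 nucleosome of chemokine promoters lay 40 bp or more downstream at 7 of the 15 with a peak in both states and upstream at 3, beside 21.5% and 21.3% of all promoters, and the median shift was 30 bp. At Cxcl2 the +1 position was 75 and then 165 bp, at Cxcl10 85 and 135 bp, and at Ccl7 85 and 205 bp, while at Ccl5 it was 175 and 75 bp. Cytokine promoters had 3 downstream and 8 upstream of 25. Il1b had its +1 nucleosome at 65 and 115 bp, and Ifnb1 at 175 and 45 bp. Tnf had a +1 peak at 145 bp at rest and none in the window after LPS, where the highest value of the promoter was 19.2, close to the ceiling of the deposited occupancies. Only 81 of its 200 bins held a fragment after LPS, against 174 at rest, so its values after LPS rest on few fragments. Over the 5 lists together 23 of 92 lay downstream and 22 upstream.

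Likeness of whole profiles was measured within each promoter. Pearson's r over the 200 bins of a promoter had a median of 0.369, against 0.021 when a promoter was set beside the next one of the table, and it rose from 0.319 at scores over 100 to 150 to 0.448 at scores over 500. Fibroblasts gave 0.315, and resting DCs against resting fibroblasts 0.284. Neighbouring bins share fragments, so r describes likeness only. Interferon response promoters had a median r of 0.538 and DC identity promoters 0.508.

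Lags of up to 150 bp in either direction were searched. The lag that best aligned both profiles was 10 bp or less at 7352 promoters (54.2%). The same held at 794 (88.5%) of the 897 promoters that reached an r of 0.7 or more at their best lag. In that set it was 40 bp or more downstream at 10 and upstream at 11. Among promoters with a score of 300 or more, any expression above 0 and an r of 0.7 or more at their best lag, the largest lags were −150 bp at Lin37, a subunit of the DREAM complex, and 70 bp at the histone gene H2bc14, which has near-identical copies. The Lin37 lag lies at the limit of the search, so its size is not a measured shift. Eef1b2 (−30 bp) and Ndufs1 (30 bp) have TSSs 10 bp apart and are a divergent pair seen from both sides, so they are 1 observation. The other 8 named lags were 20 or 30 bp in size, and among them H2-T22 and Gm6034, like 1700092M07Rik and Stx5a, share a window.

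The patterning level sums, over bins, the occupancy of a promoter weighted by the mean profile of expressed promoters at rest. Promoters whose profile is like that mean profile therefore score high. The median level was 8.31 at rest and 8.62 after LPS at expressed promoters, and 0.91 and 1.15 at silent ones. The level was higher after LPS at 50.6% of expressed promoters. TLR4 pathway promoters had medians of 10.31 and 11.54, DC identity promoters of 8.71 and 5.45, chemokine promoters of 1.38 and 3.4 and proteasome promoters of 17.27 and 13.76. The SD of the difference over promoters was 10.75 at all and 10.57 at expressed promoters, and no list difference was tested.

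Promoters with and without a motif in the 150 bases before the TSS were compared by the same shares. Those with an NF-κB match were 2-fold lower in 22.9% and higher in 14.4%, against 21.0% and 14.8% of those without. Mean occupancy within 25 bp of the NF-κB match was 1.254 at rest and 1.286 after LPS, within 25 bp of the TATA box 1.305 and 1.428, and of the interferon response motif 1.116 and 1.131. TATA box promoters had a shallow NDR in the mean profile, 0.88 and 0.825, against 0.676 and 0.658 without the motif. A match is a description of these letters and not a binding site.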

How the data were processed

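H3K4me1 ChIP-MNase data of DCs (1 pooled table in each state) were compared with fibroblast tables. The authors aligned reads with bowtie to mm9 (Bowtie2 and bedtools per the labels' processing notes), removed excess duplicates and counted fragments in 10 bp bins. The deposited signal is occupancy relative to a surrounding window, smoothed by the authors, who give 1 kb, although the highest values would also fit a shorter window. It holds no counts, so depth is unknown, and an empty bin was read as 0. The deposited promoter table gives a coverage score, made by the authors from fragments near the TSS, and resting expression as FPKM values. It also holds the authors' own inducibility columns, which were not used. No further column of per-sample values was left out.

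Analyses used Python 3.11.15, numpy 2.4.6, scipy 1.17.1 and pandas 2.3.3. Peaks were local maxima, with the lowest 20% of prominences left out. Calls were 2-fold for NDR ratios, with 0.1 added, and 40 bp for positions. These are limits of size and not tests. Simulated profiles with known changes gave shifts as made, and NDR changes too before smoothing and without the added 0.1. Both made the simulated NDR changes smaller. The simulated flank was unchanged, so this does not cover ratios raised by a sparse flank, such as that of Ccl20, or calls picked by size. Symbols came from RefSeq accessions (24924 of 25881 matched, 96.3%) and sequence from mm9, where 85.64% of TSSs lay within 50 bp of an annotated start.

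Named genes were the fixed LPS genes, called members of the 5 response lists, the 8 largest falls and rises and 6 largest lags each way at a score of 300 or more, and up to 4 best-covered called members of each other list; further list members were named after their values were seen. The promoters, lists and rules were chosen with earlier results of these data known.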

Additional observations from a re-analysis of the deposited data

Results flagged for a closer look

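In 4 results DCs and fibroblasts moved in opposite directions, since the DC change had 1 sign and the pooled fibroblasts and both control-vector replicates the other. None of these differences was tested, because DCs have 1 pooled table in each state. The same sign rule was applied to the NDR ratio of the mean profile at all, expressed and silent promoters. It was also applied to the −1, +1 and +2 heights at all and at expressed promoters, and to the medians of the 12 lists. The 4 were picked by sign alone, and how many such flags scatter would give was not tested. The +1 nucleosome of the mean profile at expressed promoters changed in height by −0.09 in DCs and by 0.01, 0.014 and 0.03 in fibroblasts. The last 2 of these come from the control-vector tables, whose unit is smaller. Relative to the mean of each library the changes were −0.048 in DCs and 0.02, 0.021 and 0.034 in fibroblasts. Control-vector replicates of the same state, which are single and sparser libraries, differed by 0.112 and 0.126. The +2 nucleosome there changed by 0.021 in DCs and by −0.008, −0.011 and −0.067 in fibroblasts, but relative to the mean of each library by 0.02 in DCs and by 0.005, −0.011 and −0.086, so the pooled fibroblasts then moved the same way as DCs. The NDR ratio of the mean profile at silent promoters changed by −0.014 in DCs and by 0.008, 0.032 and 0.008 in fibroblasts. The median log2 NDR change of interferon response promoters was −0.025 in DCs and 0.024, 0.288 and 0.082 in fibroblasts.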

How the results depend on the processing

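No paired analysis was possible because each DC state is 1 table of 2 pooled replicates, so no replicate could be left out or used as a block. Of 146 alternative values for 58 results, 124 stayed within the tolerance, 18 moved beyond it and 4 changed sign. The tolerance was the SD of the same change over the 2 control-vector replicates, or 1.5 times for shares, and it was wide: on square roots the NDR ratio changed by −0.038 at all and −0.047 at expressed promoters, against −0.02 for both. With the NDR from −100 to 50 bp, the change at silent promoters was −0.032. With each library divided by its mean occupancy, which also changes the unit, the −1 height changed by 0.001 and the +1 height by −0.048. With a coverage score over 200, these height changes were −0.028 and −0.057. With 0.5 added, 12.2% of promoters were 2-fold lower and 8.9% higher. Taking the first peak next to the TSS placed the −1 nucleosome upstream at 35.9% and downstream at 27.3%. The +2 nucleosome was then downstream at 37.9% and upstream at 30.9%, and the +1 nucleosome downstream at 30.2% and upstream at 24.3%. Median r was 0.394 on square roots and 0.427 at a score of 300 or more, and the median patterning difference was 0.35 on square roots against 0.1. With 1 promoter for each gene, the cytokine median was −0.05, 4.8% of cytokine and 5.3% of TLR4 promoters were higher, and 9.1% of fibroblast marker promoters lower. With the mean of all bins as flank, the DC identity median was 0.11 with 17.9% higher, the fibroblast marker median −0.02 with 8.3% lower, and the lymphocyte marker median 0.01 with 0.0% lower. The causes were not tested. An NDR limit of 0.4 and the omission of overlapping windows were chosen after seeing the data and left the 5 values they were run on within the tolerance.

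Without replicates of the DC states, a change at 1 promoter cannot be told apart from the difference between pooled libraries, and sparse windows make the largest ratios the least precise.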
